A study of Mus musculus with 10 samples.

Results

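Acyl-CoA thioesterases cut the bond between a fatty acid and coenzyme A, returning the free acid and coenzyme A, and so set how much activated fatty acid a compartment of the cell holds. In the mouse the type I enzymes are close relatives that sit in the cytosol (Acot1), in mitochondria (Acot2) and in peroxisomes (Acot3, Acot4, Acot5 and Acot6), and several of them are textbook targets of PPAR alpha, the fatty acid receptor that drives the fasting programme of the liver. The type II enzymes (Acot7, Acot8, Acot12 and Acot13) do the same reaction with an unrelated fold and differ in the acyl chains they take. The genes described here are 9 members of this family, out of 26148 genes tested on the arrays (15133 with a symbol). These 9 are read by 10 probes. They were chosen by family name, though Acot9, Acot10 and Acot11 carry the name too and are not among the 9. The 9 were chosen with their differences between ethanol and maltose on these same arrays already known. These differences are therefore given as a description. Where a gene is said to pass the threshold of the fit over all genes, that is part of the description and supports nothing.

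The livers came from male C57BL/6N mice. By the labels there were 4 liver samples after gavage with ethanol at 5 g/kg, 3 after ethanol at 7 g/kg and 3 after maltose with the calories of the 5 g/kg dose, and they do not say that each came from another mouse. Every group was thus gavaged, no group went without both ethanol and maltose, and a difference from maltose cannot be assigned to either. The labels give neither the age of the mice nor the time between gavage and collection. Each array held the liver cDNA of 1 replicate in Cy5 against a bought mouse RNA mixture in Cy3, so a value is the log2 ratio of liver over this reference and shows nothing about the amount of one gene against another. The labels name the reference as assorted mouse total RNA but also give liver as its tissue, so what the ratio is taken against is not settled. Spread is that between arrays.

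Arrays had a median Cy5 signal of 121 to 219 units where the local background was 21 to 24, with 67.3% to 86.3% of spots well above it. Precision is limited by how few arrays each group has. The hepatocyte markers averaged higher in ethanol than in maltose livers, at 0.071 to 0.33 per array at 5 g/kg and 0.097 to 0.46 at 7 g/kg, against −0.61 to −0.26 in maltose livers (log2, each marker set to its mean over the arrays, 8 of 10 markers tested). By limma with Benjamini-Hochberg adjustment 2 of the 8 rose at 5 g/kg, Fgb (log2 1.236) and Ahsg (1.23). At 7 g/kg 4 rose, Fgb (2.639), Ahsg (1.096), Tat (0.715) and Ttr (0.688). The markers were uneven, with a median difference of 0.483 at 5 g/kg and 0.569 at 7 g/kg. Alb differed by 0.204 at 5 g/kg and 0.079 at 7 g/kg and did not pass, and Apoa1 stood at −0.16 at 7 g/kg. The liver endothelial markers lay at −0.033 to 0.17 at 5 g/kg and 0.087 to 0.14 at 7 g/kg, against −0.275 to −0.14 in maltose livers, with 3 of 9 higher at each dose. Stellate cell markers lay at 0.046 to 0.15 and 0.034 to 0.14, against −0.36 to −0.099 in maltose livers. Lymphocyte markers lay at −0.027 to 0.18 and 0.002 to 0.19, against −0.225 to −0.068. Neutrophil markers lay at −0.197 to 0.29 at 5 g/kg and 0.118 to 0.27 at 7 g/kg, against −0.224 to −0.124 in maltose livers. Of 8 tested, S100a8 (log2 1.28, limma adjusted p = 0.00046) and S100a9 (log2 1.41, adjusted p = 0.00152) rose at 7 g/kg. S100a8 stood well above background on no maltose array, so the size of its rise is not well measured. The other neutrophil markers did not pass at 7 g/kg, from −0.133 (Camp) to 0.171 (Retnlg). The part of these shifts in the values below was not tested, and in whole liver fewer cells of a type and less RNA per cell cannot be told apart.

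The type I genes Acot2, Acot1, Acot4, Acot3, Acot5 and Acot6 lie in this order within 122.0 kb on chromosome 12, from chr12:83987861 to chr12:84109783 of GRCm38.p6. Acot6 has no probe under its name on the array. The RefSeq promoter windows of GRCm38.p6 hold 8 of the 9 genes, all but Acot13. The 250 bases before the start are shown for the 4 genes that stood lower than maltose at both doses by the widest margins, and for Acot5, the neighbour that did not differ. Capitals mark AGGTCA, the core motif that nuclear receptors such as PPAR alpha bind, searched on both strands, so that TGACCT is the same motif read on the other strand.

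Acot1, chr12:84009252-84009501, plus strand: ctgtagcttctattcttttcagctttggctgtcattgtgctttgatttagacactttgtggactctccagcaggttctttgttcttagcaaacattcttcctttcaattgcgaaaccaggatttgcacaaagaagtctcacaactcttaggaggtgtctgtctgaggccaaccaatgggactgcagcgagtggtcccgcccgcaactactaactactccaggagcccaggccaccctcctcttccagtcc
Acot3, chr12:84051894-84052143, plus strand: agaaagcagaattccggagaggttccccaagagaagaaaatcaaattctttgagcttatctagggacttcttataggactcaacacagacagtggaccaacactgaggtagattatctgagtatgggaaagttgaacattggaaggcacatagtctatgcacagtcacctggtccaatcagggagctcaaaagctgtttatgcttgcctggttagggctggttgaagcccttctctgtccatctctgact
Acot4, chr12:84038129-84038378, plus strand: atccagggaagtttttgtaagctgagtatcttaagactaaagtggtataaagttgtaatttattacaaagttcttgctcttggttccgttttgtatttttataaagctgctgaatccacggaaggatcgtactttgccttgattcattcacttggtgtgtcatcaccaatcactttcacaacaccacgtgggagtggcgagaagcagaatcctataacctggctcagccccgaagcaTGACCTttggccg
Acot5, chr12:84069074-84069323, plus strand: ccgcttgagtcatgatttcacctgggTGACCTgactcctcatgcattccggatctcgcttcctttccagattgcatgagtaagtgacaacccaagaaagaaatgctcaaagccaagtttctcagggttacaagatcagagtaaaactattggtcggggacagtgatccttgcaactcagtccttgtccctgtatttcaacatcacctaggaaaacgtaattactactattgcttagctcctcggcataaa
Acot12, chr13:91741271-91741520, plus strand: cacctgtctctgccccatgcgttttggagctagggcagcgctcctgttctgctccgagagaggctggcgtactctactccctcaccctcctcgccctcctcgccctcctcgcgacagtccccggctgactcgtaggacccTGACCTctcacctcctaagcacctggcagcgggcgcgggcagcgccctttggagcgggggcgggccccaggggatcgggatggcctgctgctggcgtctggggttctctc

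The start is that of the RefSeq window, and for Acot3 and Acot5, which have 2 starts in the table, the one of lower coordinate was taken. For Acot4, Acot5 and Acot12 this start lies after the first base of the annotated gene, so their windows lie wholly or mostly within it. The motif stood in 3 of the 8 windows, 13 bases before this start of Acot4, 224 bases before that of Acot5 and 110 bases before that of Acot12, against 14.0% of all 32851 promoter windows. With the 50 bases after the start included, Acot3 held it too, against 16.3% of all windows. The full direct repeat AGGTCANAGGTCA, the element PPAR alpha binds with its partner receptor, stood in none of the 8 windows and in 0.0335% of all. A match is a description of these letters, and no match says only that they are not in this window.

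Those of the 9 genes that passed the threshold were lower in ethanol livers, and Acot3, Acot1, Acot4 and Acot12 differed most. At 5 g/kg 4 of the 9 genes passed an adjusted p under 0.05 in the limma fit over all genes (Acot1, Acot3, Acot4 and Acot12), all lower than in maltose livers, while 1.57% of all genes passed lower and 3.79% in either direction. At 7 g/kg 5 of 9 passed (the same 4 and Acot8), all lower (4 with slide as a block, without Acot8), while 4.36% of all genes passed lower and 9.01% in either direction. Between 7 and 5 g/kg 2 of 9 passed (Acot1 and Acot8), both lower at 7 g/kg, while 0.906% of all genes passed lower and 1.57% in either direction. Over the arrays with a value, every ethanol array lay below every maltose array for 6 of 9 genes at 5 g/kg and 8 of 9 at 7 g/kg. Of all genes 7.64% and 12.3% did so. Acot2 counts among them, though its 5 g/kg arrays overlapped maltose in the authors' series table. Every 7 g/kg array lay below every 5 g/kg array for 3 of 9, against 6.12%. These were Acot1, Acot3 and Acot8, and Acot3 was too dim at these doses for its order to be measured. The median difference from maltose over the 9 genes was −0.25 at 5 g/kg and −0.51 at 7 g/kg on the log2 scale, beside 0.003 and 0.012 over all genes tested. Since the genes were picked with these contrasts known, nothing is read from the counts. The comparisons with maltose share the 3 maltose arrays.

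**Figure D1:**
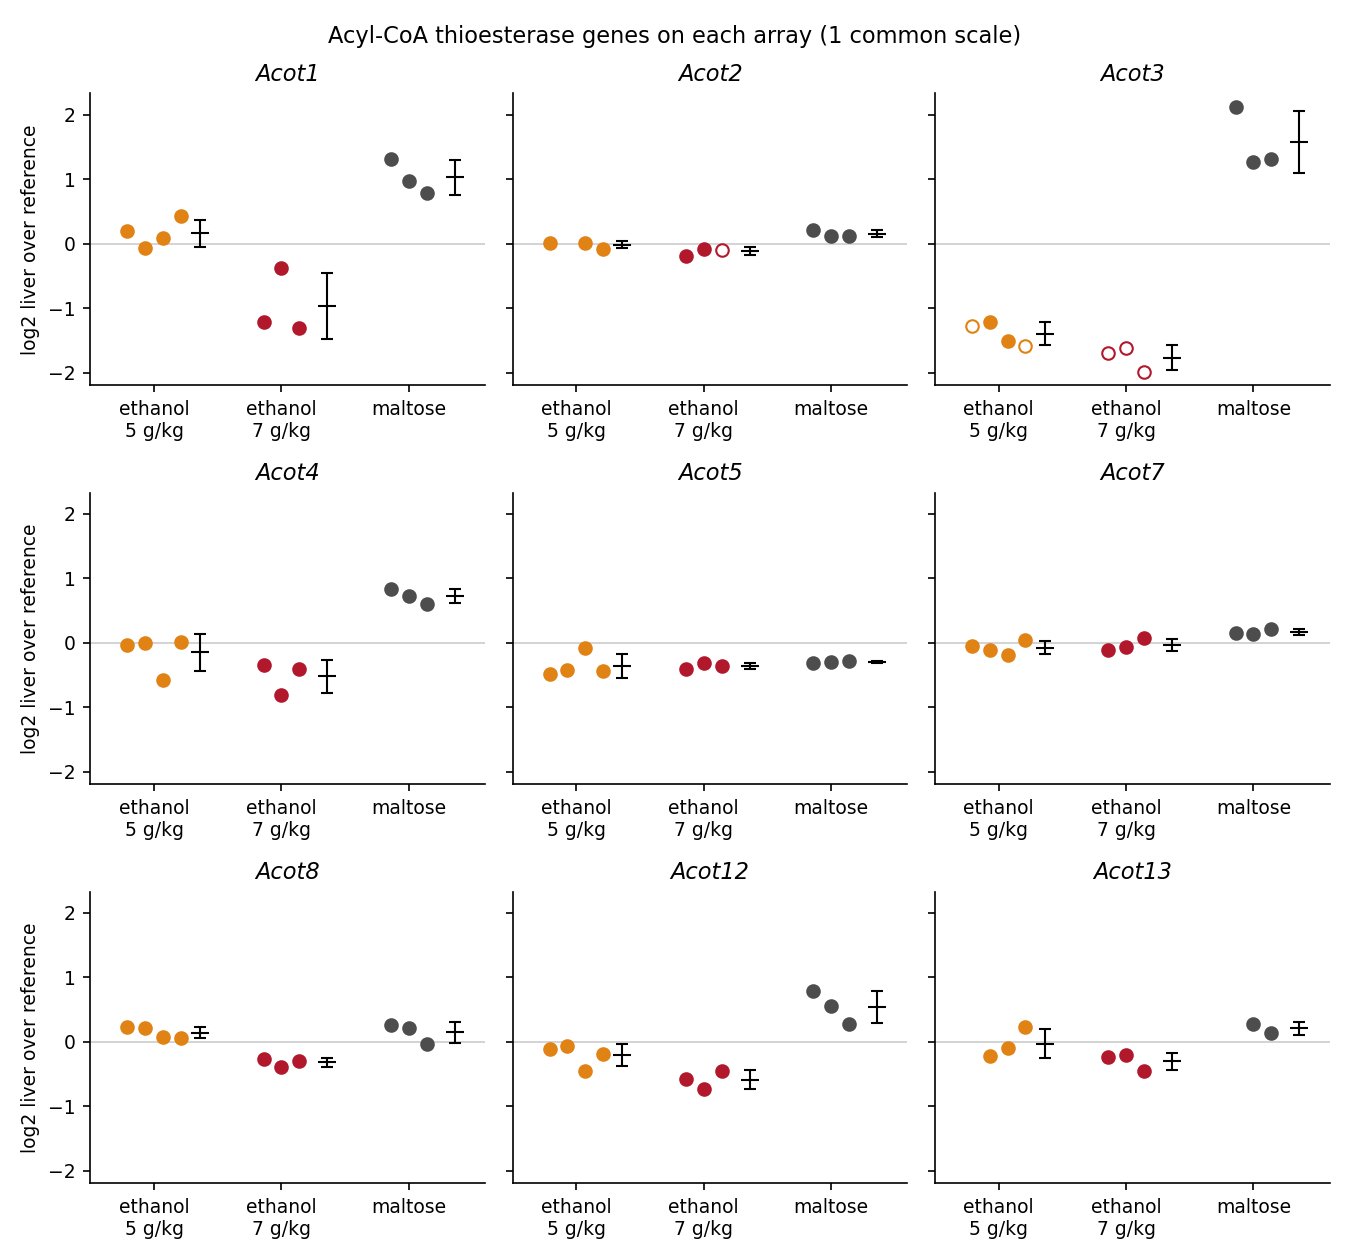
Log2 ratio of liver over reference for the 9 acyl-CoA thioesterase genes on each array, by group (ethanol 5 g/kg, ethanol 7 g/kg and maltose, 1 point per array, spots marked as outliers left out). Open points did not stand well above background in the liver channel, and the bar beside each group is its mean ± SD. Acot3 shows the widest gap between ethanol and maltose arrays, Acot1 falls into 3 separate groups, Acot8 is low at 7 g/kg alone among its groups, and Acot5 overlaps throughout.

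Acot3, a peroxisomal enzyme for long-chain acyl-CoA, showed the widest difference of the family. Its log2 ratios were −1.27, −1.21, −1.51 and −1.58 at 5 g/kg, with −1.69, −1.62 and −1.99 at 7 g/kg, against 2.125, 1.27 and 1.32 in maltose livers. The ethanol arrays of both doses lay apart from the maltose arrays by more than the range of any group. The liver channel of this probe read 59.5 to 86.0 units at 5 g/kg and 52.0 to 65.0 units at 7 g/kg over a local background of 19 to 26 units, against 291.0 to 948.0 units in maltose livers. The reference channel stood well above background on every array, at 211.5 to 413.0 units.

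On 2 of the 4 arrays at 5 g/kg, and on none of the 3 at 7 g/kg, did the Acot3 probe stand well above background in the liver channel. The difference from maltose at 5 g/kg was −2.97 (SE 0.182), and within the 3 slides that held both groups it ran from −3.40 to −2.48. At 7 g/kg the fitted difference was −3.34 (SE 0.195), with −3.31 and −2.96 within slides. The mean liver signal after normalization was 9.66-fold lower (log2 6.205 at 7 g/kg against 9.48 in maltose livers). This is a ratio of measured means, with the dim arrays as read, and no lower bound. The scanner software's own log ratio gave −4.65 at 5 g/kg and −5.87 at 7 g/kg, and an offset of 16 in place of 50 gave −3.57 and −4.11. Every array at 7 g/kg lay below every array at 5 g/kg, by 0.37 on average, but at this signal the order of the doses is not measured.

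Acot1, the cytosolic enzyme for long-chain acyl-CoA, stood lower at each dose, in steps. Its log2 ratios were 0.20, −0.066, 0.094 and 0.43 at 5 g/kg, with −1.21, −0.38 and −1.31 at 7 g/kg, against 1.32, 0.97 and 0.79 in maltose livers. The 3 groups did not overlap, and replicate 2 at 7 g/kg lay closest to the 5 g/kg arrays. The mean was 0.165 ± 0.21 at 5 g/kg (SD, n = 4), −0.96 ± 0.51 at 7 g/kg (n = 3) and 1.03 ± 0.27 in maltose livers (n = 3). This is 1.82-fold lower than maltose at 5 g/kg (log2 −0.86, SE 0.20) and 3.98-fold lower at 7 g/kg (log2 −1.99, SE 0.214), and 2.19-fold lower at 7 than at 5 g/kg (log2 −1.13, SE 0.20).

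Within slides the Acot1 difference from maltose ran from −1.12 to −0.36 at 5 g/kg, and at 7 g/kg it was −2.18 on one slide and −2.10 on the other. Between the doses it was −1.74, −1.14 and −0.47 on the 3 slides that held both, the smallest on the slide of replicate 2 at 7 g/kg. Acot1 and Acot2 are close to identical in much of their coding sequence, and so to a lesser degree are the other type I genes, and a probe of 1 may read another. Probe sequences were not used here, so how far the probes keep these genes apart was not tested.

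**Figure D2:**
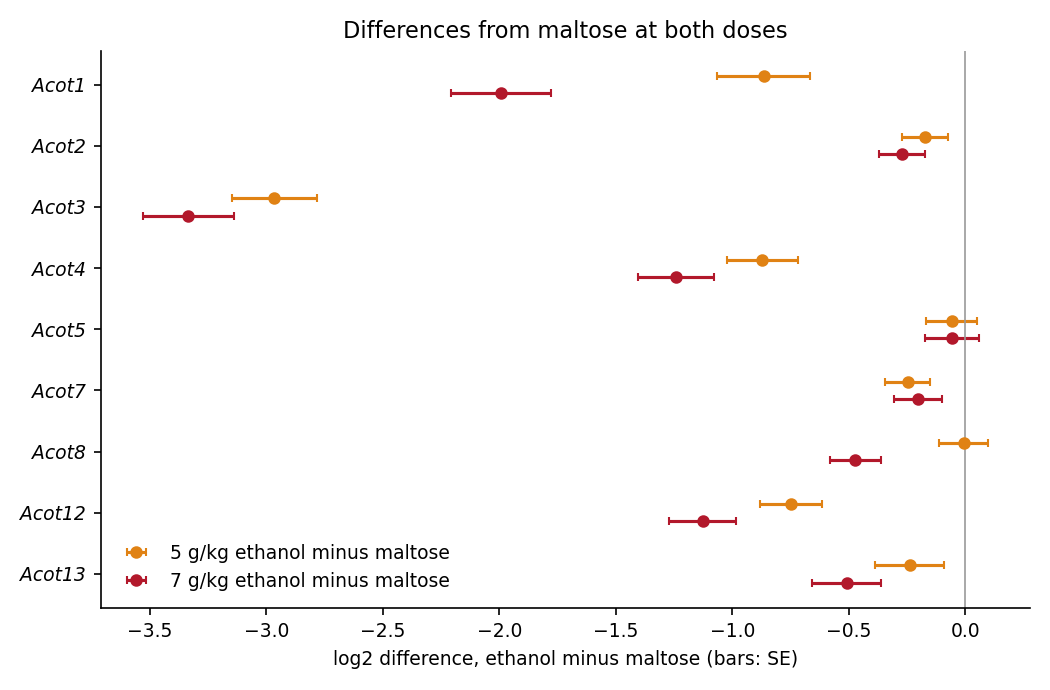
Log2 difference of 5 g/kg ethanol minus maltose (orange) and 7 g/kg ethanol minus maltose (red) for each acyl-CoA thioesterase gene, with the SE of the fit as bars. Acot3 is lowest at both doses, Acot1 lies at −0.86 and −1.99, and Acot5 lies at −0.058 and −0.057.

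Acot4, a peroxisomal enzyme that in the mouse takes succinyl-CoA and other dicarboxylic acyl-CoAs, is read by 2 probes, and both were lower in ethanol livers. The brighter probe read −0.032, −0.008, −0.57 and 0.015 at 5 g/kg, with −0.34, −0.815 and −0.40 at 7 g/kg, against 0.83, 0.73 and 0.61 in maltose livers. The second read −0.49, −0.22, −0.51 and −0.82 at 5 g/kg, with −1.61, −1.725 and −0.95 at 7 g/kg, against 1.44, 1.15 and 1.01 in maltose livers. For both probes the ethanol and maltose arrays lay apart, and the doses lay apart for the second probe alone.

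The 2 Acot4 probes differed in size. The brighter one, which stands for the gene in the fit, differed from maltose by −0.87 (SE 0.153) at 5 g/kg and −1.24 (SE 0.164) at 7 g/kg on the log2 scale. The second differed by −1.71 and −2.63, which is 3.27-fold and 6.17-fold lower. Averaged over both probes, as an alternative, the difference was −1.29 and −1.93. Within slides the brighter probe differed from maltose by −0.86 to −0.59 at 5 g/kg, and by −1.07 or −1.01 at 7 g/kg. Replicate 3 at 5 g/kg, the lowest of its group on the brighter probe, lay within the group on the second.

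**Figure D3:**
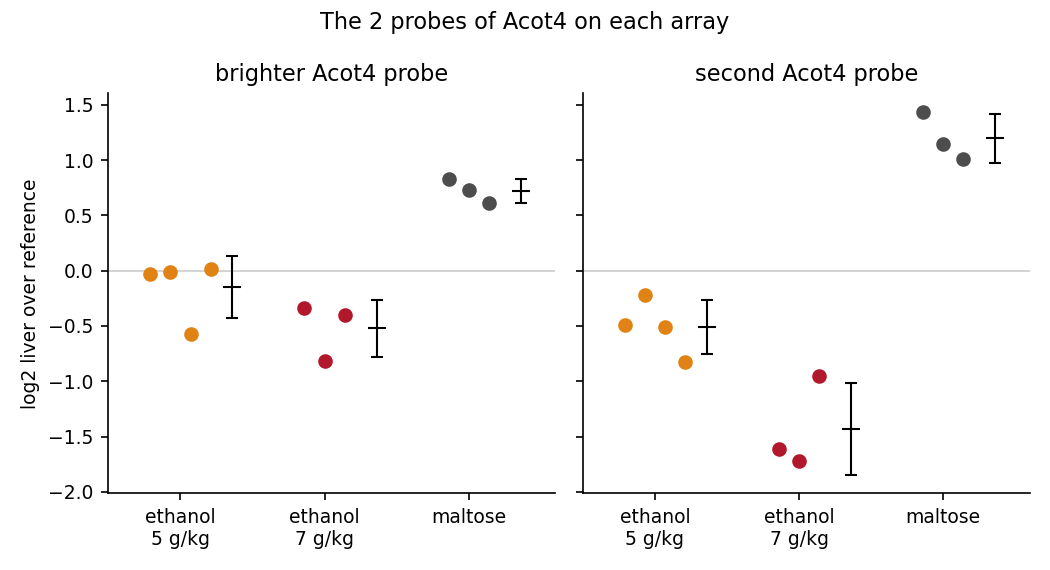
Log2 ratio of liver over reference on each array for the brighter Acot4 probe and for the second one, by group, with mean ± SD beside the points. Both probes are lower in all ethanol arrays than in all maltose arrays, and the gap is wider on the second.

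Acot5 and Acot2, the remaining type I genes with a probe, passed the threshold at neither dose. Acot5, a peroxisomal enzyme for medium-chain acyl-CoA, read −0.49, −0.42, −0.079 and −0.44 at 5 g/kg, with −0.41, −0.31 and −0.35 at 7 g/kg, against −0.32, −0.30 and −0.28 in maltose livers. All 3 groups overlapped, and the difference from maltose was −0.058 (SE 0.108) at 5 g/kg and −0.057 (SE 0.115) at 7 g/kg. Acot5 lies next to Acot3 on the chromosome, with its probe well above background on every array.

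Acot2, the mitochondrial enzyme, gave a dim probe. It read 0.020, 0.012 and −0.076 on the 3 arrays at 5 g/kg that gave a value and −0.19, −0.074 and −0.089 at 7 g/kg, against 0.22, 0.125 and 0.12 in maltose livers. The spot of replicate 2 at 5 g/kg was marked as an outlier and entered the fit as missing, and replicate 3 at 7 g/kg did not stand well above background in either channel. Every ethanol array with a value lay below every maltose array, by −0.17 at 5 g/kg and −0.27 at 7 g/kg on average (SE 0.0986 each). Neither difference passed the threshold. The liver signal was 80.5 to 162.0 units on the other arrays, so that the constant added to dim signals pulls these ratios towards 0. In the authors' series table the 5 g/kg arrays, at −0.24 to 0.44, overlapped maltose at 0.072 to 0.36. Those at 7 g/kg did not.

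Of the type II genes Acot12 differed most. Acot12 is a cytosolic enzyme of the liver that cleaves acetyl-CoA to acetate, the same acetate that ethanol oxidation yields. Its log2 ratios were −0.115, −0.065, −0.46 and −0.18 at 5 g/kg, with −0.575, −0.73 and −0.45 at 7 g/kg, against 0.78, 0.56 and 0.28 in maltose livers. Ethanol and maltose arrays lay apart at both doses, while replicate 3 at 5 g/kg reached into the range of the 7 g/kg arrays. Acot12 was 1.68-fold lower than maltose at 5 g/kg (log2 −0.75, SE 0.133) and 2.18-fold lower at 7 g/kg (log2 −1.13, SE 0.143). Within slides it ran from −0.90 to −0.46 at 5 g/kg, and at 7 g/kg it was −1.14 on one slide and −0.73 on the other.

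Acot8, a peroxisomal enzyme with a broad choice of acyl chains that include bile acid CoA esters, was lower at 7 g/kg and close to maltose at 5 g/kg. It read 0.23, 0.21, 0.069 and 0.065 at 5 g/kg, with −0.27, −0.39 and −0.30 at 7 g/kg, against 0.27, 0.22 and −0.037 in maltose livers. The 7 g/kg arrays lay below all others, and the 5 g/kg and maltose arrays overlapped. The difference from maltose was −0.007 (SE 0.103) at 5 g/kg and −0.47 (SE 0.110) at 7 g/kg, and 7 minus 5 g/kg was −0.46 (SE 0.103), with −0.48 to −0.37 within slides. Against maltose it was −0.49 and −0.27 within slides at 7 g/kg. With slide as a block the difference was −0.40 from maltose and −0.42 between the doses, and neither passed the threshold.

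Acot13, an enzyme for long-chain acyl-CoA tied to mitochondria, gave −0.21, −0.099 and 0.22 on 3 arrays at 5 g/kg, with −0.24, −0.21 and −0.45 at 7 g/kg, against 0.28 and 0.14 on 2 maltose arrays. Replicate 1 of the 5 g/kg group and replicate 1 of the maltose group were marked as outliers on this probe and entered the fit as missing. At 5 g/kg the arrays overlapped those of maltose (log2 −0.24, SE 0.148), and at 7 g/kg they did not (log2 −0.51, SE 0.148). The 7 g/kg difference did not pass the threshold. With the marked spots kept it was −0.52 (SE 0.124) and passed.

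Acot7, a cytosolic enzyme best known from brain, read −0.046, −0.11, −0.19 and 0.046 at 5 g/kg, with −0.11, −0.062 and 0.077 at 7 g/kg, against 0.16, 0.14 and 0.22 in maltose livers. All ethanol arrays lay below all maltose arrays, by a small margin. The difference was −0.25 (SE 0.0964) at 5 g/kg and −0.20 (SE 0.103) at 7 g/kg and passed the threshold at neither dose. The doses overlapped, with 7 minus 5 g/kg at 0.043 (SE 0.0964).

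Over the 10 arrays Pearson's r between the log2 ratios of Acot1, Acot3, Acot4 and Acot12 ran from 0.789 for Acot1 and Acot4 to 0.974 for Acot12 and Acot4. Values as high were found with genes that did not pass, at 0.908 for Acot2 and Acot3 and 0.908 for Acot1 and Acot13. Acot5 had r between −0.101 and 0.293 with the other members. These arrays share 3 groups and 1 reference, so r mostly describes the group means. Outside the family the symbols most like Acot1 were Phyh (r = 0.988 over 9 arrays), which starts the breakdown of phytanic acid in peroxisomes, Abat (r = 0.983 over 9), an aminotransferase of GABA, Kcnn1 (r = 0.977), Cmbl (r = 0.969 over 8) and Atxn10 (r = 0.965). Those most like Acot3 were Clec2h (r = 0.976), Rilp (r = 0.971), Cdc14b (r = 0.969), Mettl7b (r = 0.966 over 8) and Abcg8 (r = 0.965), a sterol exporter of the bile canaliculus.

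Genes beside the chromosome 12 cluster were looked at by position, a choice made after the member values were seen. The nearest 3 tested genes on each side were Zfyve1, Numb and Riox1 before it and Dnal1, Ptgr2 and Zfp410 after it. Of the 6, Zfyve1 alone passed the test at either dose, lower at 7 g/kg (log2 −0.52, SE 0.14, limma adjusted p = 0.0321), and none passed at 5 g/kg. The closest tested gene after the cluster, Dnal1, differed by 0.023 at 5 g/kg and −0.009 at 7 g/kg.

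No tested thioesterase gene outside the 9 passed as lower. Acot9, Acot10 and Acot11 share the family name, and the split from the 9 was made with earlier results known. Nothing is therefore read from the contrast between them. Of 12 tested genes of the list of other thioesterases, 1 rose at 5 g/kg and 2 rose at 7 g/kg, with a median difference of 0.073 and 0.012. Baat, which joins bile acids to taurine or glycine, rose at both doses, by 0.40 at 5 g/kg (limma adjusted p = 0.0416) and 0.49 at 7 g/kg (adjusted p = 0.00755). At 5 g/kg no gene of the list passed with median centring or in the series table. Acot11, an enzyme of brown fat, rose by 0.53 at 7 g/kg (SE 0.153, limma adjusted p = 0.0453), at 0.63, 0.18 and 0.32 against −0.14, 0.13 and −0.45 in maltose livers. A second, dim Acot11 probe overlapped between these groups, at 0.30, 0.052 and −0.40 against −0.029, 0.010 and −0.33. The mitochondrial genes Acot9 (0.105 at 5 g/kg and 0.013 at 7 g/kg) and Acot10 (0.17 and 0.072) did not pass.

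Acyl-CoA synthetases catalyse the opposite step, the loading of fatty acids onto coenzyme A. Of 14 tested, 1 fell and none rose at 5 g/kg, and 2 fell and 1 rose at 7 g/kg, with medians of −0.076 and −0.041. Of the 19 listed, Acsl1, Acsl5, Acss1, Slc27a1 and Slc27a2 were not tested. Acsm5, a medium-chain synthetase, fell at 5 g/kg (log2 −0.88, limma adjusted p = 0.00139) and at 7 g/kg (log2 −0.86, adjusted p = 0.00103). Acsm3 fell at 7 g/kg (log2 −0.66, adjusted p = 0.00221). Acss2, which loads acetate onto coenzyme A and so runs against Acot12, rose by 0.96 at 7 g/kg (SE 0.121, adjusted p = 0.000182) and was −0.34 at 5 g/kg, which did not pass (adjusted p = 0.136).

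Among 15 tested genes of coenzyme A supply and breakdown, 1 fell at 5 g/kg, and 3 fell and 1 rose at 7 g/kg, with medians of −0.12 and −0.107. Ppcdc, an enzyme of coenzyme A synthesis, fell at 5 g/kg (log2 −0.65, limma adjusted p = 0.00672) and at 7 g/kg (log2 −0.83, adjusted p = 0.000868). The pantetheinases Vnn1 (log2 −1.72, adjusted p = 5.63e-05) and Vnn3 (log2 −1.01, adjusted p = 7.02e-05) fell at 7 g/kg. Slc25a17, a peroxisomal carrier of coenzyme A, rose by 0.44 at 7 g/kg (adjusted p = 0.0389). At 5 g/kg Vnn1 and Vnn3 stood at −0.32 and −0.26 and did not pass.

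In bile acid conjugation and peroxisomal side-chain steps, 2 of 9 genes rose at 5 g/kg, Acox2 by 0.45 (limma adjusted p = 0.0355) and Baat, but only 1 passed with slide as a block and 0 with median centring or in the series table. At 7 g/kg 2 rose and 3 fell, among them Amacr (0.49, adjusted p = 0.0163), Hsd17b4 (−0.79, adjusted p = 0.00133) and Phyh (−0.58, adjusted p = 0.00602), and these 5 became 3 with median centring or in the series table. Of 12 tested genes (18 listed) of omega-oxidation and dicarboxylic acids, the pathway that makes the substrates of Acot4, 1 fell at 5 g/kg, and 7 fell and 1 rose at 7 g/kg, with medians of −0.101 and −0.44. Aldh3a2, a fatty aldehyde dehydrogenase, fell at 5 g/kg (log2 −0.70, limma adjusted p = 0.00589) and at 7 g/kg (log2 −1.27, adjusted p = 4.5e-05). Cyp4f14, named after its value was seen, rose by 0.95 at 7 g/kg (adjusted p = 0.00245). Hsd17b4 stands in both of these lists and in the PPAR alpha list, which also shares Vnn1 with the coenzyme A list and Cyp4a14 and Cyp4a31 with the omega-oxidation list.

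Known target genes of PPAR alpha fell in number at 7 g/kg, and Ppara itself fell at both doses. Its difference from maltose was −1.26 at 5 g/kg (SE 0.112, limma adjusted p = 2.94e-05) and −1.15 at 7 g/kg (SE 0.12, adjusted p = 4.02e-05). Of 30 tested genes of the list, which holds Ppara and no gene of the family, 4 fell and 1 rose at 5 g/kg, with a median of −0.28, and 23 fell and none rose at 7 g/kg, with a median of −0.87. At 5 g/kg the 4 that fell were Ppara, Cpt1a (−1.17, adjusted p = 0.000398), the gate of fatty acids into mitochondria, Bdh1 (−1.25, adjusted p = 0.000319), a ketone body enzyme, and Eci2 (−0.495, adjusted p = 0.00924). The one that rose, Pdk4 (0.69, adjusted p = 0.0123), is named after its value was seen. Of the 38 genes listed 8 were not tested, and the list was drawn up with earlier results known.

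Cyp4a14, a fatty acid omega-hydroxylase, stood at −0.099 at 5 g/kg and did not pass (limma adjusted p = 0.866), and fell at 7 g/kg (log2 −6.11, SE 0.197, adjusted p = 5.41e-10). Cyp4a31 stood at −0.41 at 5 g/kg and fell at 7 g/kg (log2 −4.92, adjusted p = 9.38e-08). Ech1, a peroxisomal isomerase, stood at −0.18 and fell at 7 g/kg (log2 −1.22, adjusted p = 1.17e-05). Cpt1a fell at 7 g/kg too (log2 −1.58, adjusted p = 2.2e-05). Set beside these, Acot3 was at −2.97 and −3.34, though its order between doses is not measured. Acot4 was at −0.87 and −1.24 on the brighter probe and at −1.71 and −2.63 on the second. Acot12 was at −0.75 and −1.13, Acot1 at −0.86 and −1.99 and Acot8 at −0.007 and −0.47. Whether the step between doses differs from gene to gene was not tested.

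**Figure D4:**
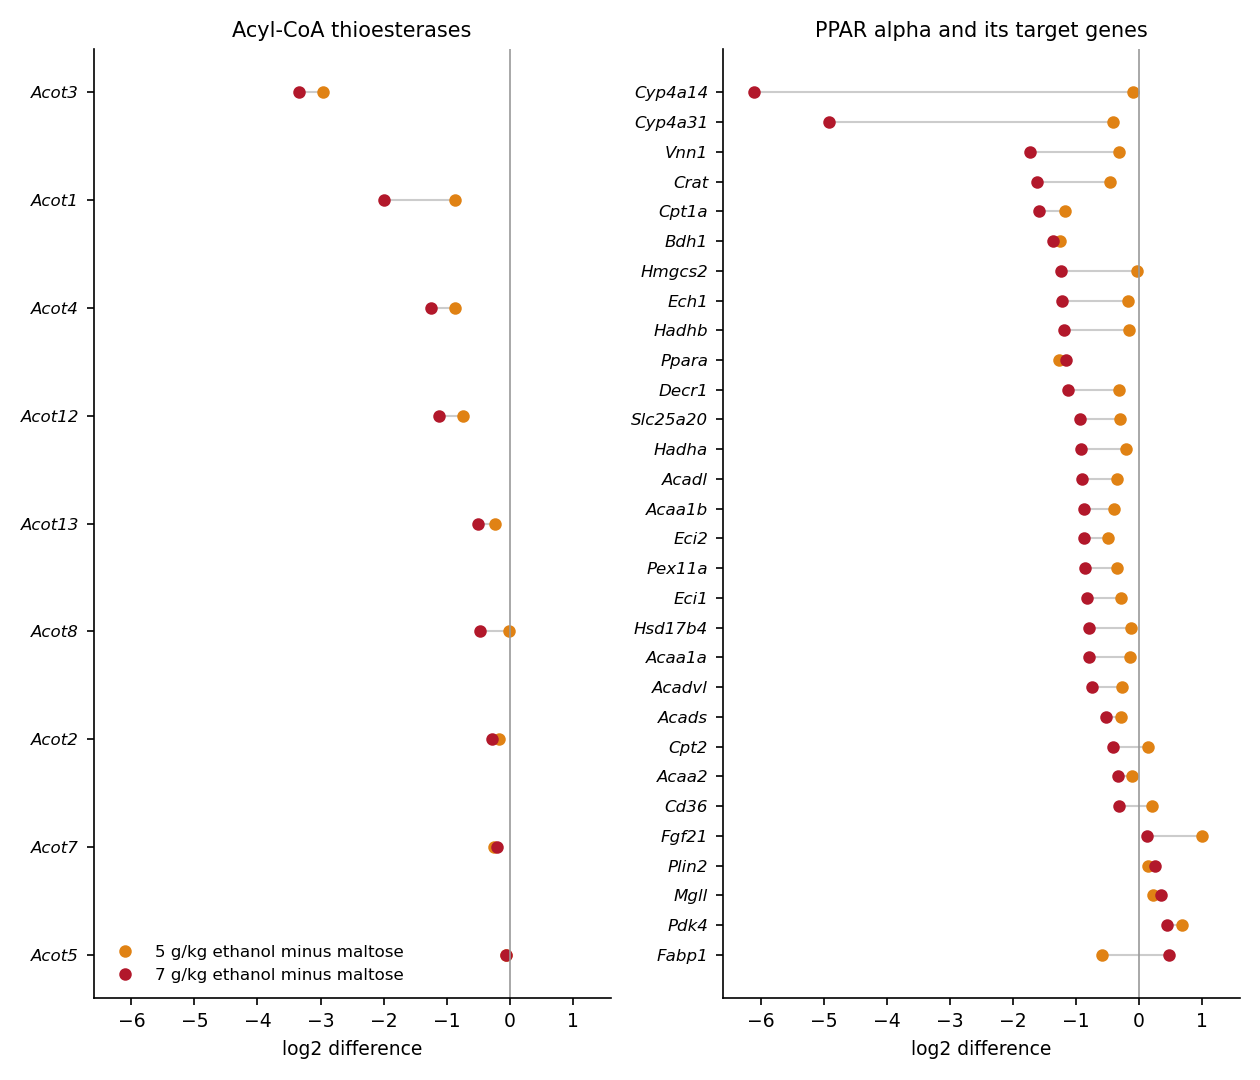
Log2 differences of 5 g/kg ethanol minus maltose (orange) and 7 g/kg ethanol minus maltose (red) for the 9 acyl-CoA thioesterase genes (left) and for the 30 tested genes of the PPAR alpha list (right), each panel sorted by the 7 g/kg difference, with a line joining the doses of a gene. Acot3 lies lowest of the 9 at both doses, though its order between doses is not measured, and Acot4 is shown by its brighter probe. At 5 g/kg Cyp4a14 lies near 0 and Cyp4a31 at −0.41, and both lie lowest of their list at 7 g/kg.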

How the data were processed

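Per the file headers the arrays were read with Agilent Feature Extraction 11.5.1.1, a tool that the submitters' processing notes also name. Median intensity values of the spots and their surroundings, in Cy5 and Cy3, were deposited without further change, per the file headers. A log10 ratio of processed Cy5 over Cy3 signal stands beside them, per the file headers. The authors' series table was read as log2 of liver over reference from its values, and how it was normalized is not given in the sources used here. For the member genes without outlier-marked spots, its differences from maltose equalled those of the scanner software's own log ratio. The series table and the scanner log ratio are counted as separate alternatives below but are not independent. The scanner software's flags for outlier spots and for spots well above background were used as deposited.

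From the median intensities, limma 3.58.1 in R 4.3.3 corrected the background (normexp, offset 50, which pulls the ratios of dim spots towards 0) and normalized each array by loess. Spots of a probe were averaged, and control and outlier-marked spots were left out. Symbols came from RefSeq accessions through the GRCm38.p6 annotation for 24375 of 41174 probes. The array was designed on mm8, so coordinates are those of the annotation and not of the probes. Probes well above background in the liver channel on at least 3 arrays were kept, each gene was read by its brightest probe, and genes needed 2 values in each group. This left 26148 genes. All 9 thioesterase genes passed these filters, Acot3 through its maltose arrays and 2 arrays at 5 g/kg.

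One fit of 3 group means over the 10 arrays, with empirical Bayes moderation and Benjamini-Hochberg adjustment over all genes, gave the differences, SEs and adjusted p-values (two-sided, threshold 0.05). It was tested on simulated data. The median SE was 0.12, 0.128 and 0.12 for 5 g/kg minus maltose, 7 g/kg minus maltose and 7 minus 5 g/kg. Nothing in the labels says that replicates are more than separate samples of a group, so p-values cover only the differences among these arrays, which may be technical. The arrays lie on 4 slides, none with 1 group alone, and differences within slides are given. The members, the gene lists and the tests were chosen with earlier results of these data known. Named genes are the 9 members, Acot6, Acot9, Acot10, Acot11 and Ppara, up to 4 genes of each list with the smallest p in each comparison with maltose, and the 5 symbols most like Acot1 and Acot3 over the arrays. Outside this rule stand the genes beside the cluster, marker genes and those said to be named after their values were seen. Marker lists of Kupffer cells, bile duct, white adipocytes and exocrine pancreas were tested too. In them 0 to 1 genes passed per list and comparison, and only the bile duct list held a gene that fell. Alternatives changed the background correction, normalization, channel, source of the values, filter, probe rule, outlier marks, moderation, threshold, slide or replicate number as a block, and left out each array in turn.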

Additional observations from a re-analysis of the deposited data

Results flagged for a closer look

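Within the 5 g/kg group, the only one with 4 arrays, 1 array stood far from the others for 2 of the member probes. For the brighter Acot4 probe, replicate 3 lay at −0.57, below the others at −0.032, −0.008 and 0.015, and its gap to the nearest was 0.921 of the range of the group. For Acot5, replicate 3 lay at −0.079, above the others at −0.49, −0.42 and −0.44, with a gap of 0.834 of the range. Both exceed Dixon's critical value for 4 samples, which chance exceeds in about 1 of 20 groups. All member probes with 4 values in this group were searched, which leaves out Acot2 and Acot13, so chance had more than 1 try. The same array was the lowest of its group for Acot12, with a gap of 0.704 of the range, which does not pass. Groups of 3 arrays were not examined in this way.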

How the results depend on the processing

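Over 22 alternatives each (20 for Acot13), no difference of a gene that passed changed sign, and Acot3 at both doses and Acot1, Acot4 and Acot12 at 7 g/kg passed in all 22. A filter of well above background on all 10 arrays, which is not among these 22, leaves Acot3 and Acot2 untested and gives 3 member genes at 5 g/kg. At 7 g/kg it gives 5 without Acot3, so a gene that did not pass in the main fit passes there. Acot1 at 5 g/kg passed in 14 of 22, Acot4 and Acot12 at 5 g/kg in 21 of 22, Acot8 at 7 g/kg in 16 of 22, and Acot13 at 7 g/kg in 5 of 20. Acot5 and Acot8 at 5 g/kg and Acot5 at 7 g/kg, none of which passed, changed sign in 1, 7 and 1. The member genes that passed at 5 g/kg numbered 4, and 1 with the Cy5 channel alone. Of the 2 that passed between the doses, which are Acot1 and Acot8, 1 was left with slide as a block, with the replicate block, with an offset of 16 and with median centring (in each Acot8 no longer passed), and 0 with Cy5 alone, the scanner log ratio, the series table and an adjusted p under 0.01. The mean of the probes of a gene gave 3, with Acot4 added. Acot8 passed there in 8 of 22 alternatives. The counts over all genes (990, 2356 and 410) were 119, 592 and 47 with Cy5 alone, 375, 1179 and 143 at an adjusted p under 0.01, 523 at 5 g/kg and 116 between doses with the scanner log ratio, and 555 and 130 with the series table. Leaving out 1 array gave 466 to 1026, 1483 to 2340 and 200 to 424 over all genes, and 3 to 4, 4 to 6 and 0 to 2 member genes. At 5 g/kg the count was 466, 634 and 497 without maltose replicates 1, 2 and 3, and at 7 g/kg it was 1483 without maltose replicate 1. Between the doses it was 200 and 226 without replicates 1 and 2 at 7 g/kg, and 258 and 228 without replicates 1 and 2 at 5 g/kg. The 2 member genes between the doses became 0 without replicate 1 or 3 at 7 g/kg, and 1 without replicate 2 at 7 g/kg, replicate 1, 2 or 4 at 5 g/kg or maltose replicate 2. Deviations of same-numbered arrays from their group means correlated at −0.203 to 0.197. With so few arrays per group this cannot decide whether same-numbered arrays belong together, and the replicate block is given for that count alone. Of the other thioesterases 1 in place of 2 passed at 7 g/kg in the series table. Of the acyl-CoA synthetases 2 in place of 1 passed at 5 g/kg with median centring, and 1 in place of 2 between the doses with median centring or in the series table. Dim signal limits Acot3 and Acot2. The cause of these shifts was not tested.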

Other observations

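Between the doses the PPAR alpha list held 14 lower and 1 higher of 30 tested genes at 7 g/kg against 5 g/kg by limma with Benjamini-Hochberg adjustment, with a median of −0.545 beside 0.005 over all genes. The one higher was Fabp1 (log2 1.07, adjusted p = 0.0255), a fatty acid binding protein, named after its value was seen. Acss2, the acetate-activating enzyme, rose (log2 1.30, adjusted p = 5.78e-05), as did Nudt7, a peroxisomal hydrolase of coenzyme A (log2 1.61, adjusted p = 0.00589). Nudt7 had values on 2 arrays at 7 g/kg, and it passed against maltose at neither dose. In the lists of these 2 genes Vnn1 (log2 −1.40, adjusted p = 0.000909), Vnn3 (log2 −0.75, adjusted p = 0.00187) and Acsm3 (log2 −0.49, adjusted p = 0.0341) fell. Cyp4a14 fell (log2 −6.01, adjusted p = 2.67e-10).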
